A study of Mus musculus with 18 samples.

Results

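The transcripts described here encode enzymes and adaptors of the ubiquitin pathway that were held by Argonaute 2 (Ago2), the protein that carries microRNAs (miRNAs) to their target RNAs, in the mouse colon. Members were taken by gene name alone: every merged Ago2 peak whose gene label begins with Ube2, Ube3, Ube4 or Herc, with Fbxo, Fbxw or Fbxl, or with Usp, Rnf, Trim or Cul followed by a digit. This gave 74 peaks in 48 genes, of 5554 merged peaks and 2568 gene labels in all. The rule uses gene names only, but a gene can enter only if a peak was called in it.

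The study pulled down Halo-tagged Ago2 after ultraviolet crosslinking (HEAP, a form of CLIP-seq) and sequenced the miRNAs and the RNA fragments bound to it. Colonic epithelium was scraped from distal colons of C57BL/6 mice that were 8 to 12 weeks old, and received 400 mJ per square centimetre of ultraviolet light 3 times. The control group, called WT below, was Halo-Ago2/+; Fabp-Cre/+ with wild-type K-Ras, and the other group, called G12D, was Halo-Ago2/+; Fabp-Cre/+; K-Ras-G12D/+, which adds 1 oncogenic K-Ras allele. Both groups therefore carry the tagged Ago2 and a Cre transgene named for a fatty acid binding protein gene. Each group had 3 pulldown mRNA and 3 miRNA libraries. Whether every library is a separate mouse is not stated in the labels, and p-values therefore measure only the spread between libraries, which may be technical. Since the 6 libraries of input RNA were not used here, a change in Ago2 binding and a change in the amount of transcript cannot be told apart, nor can fewer cells of a type and less RNA per cell.

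Reads in merged peaks ranged from 54401 to 148770 in the WT pulldown libraries and from 148927 to 723937 in the G12D ones. A single read was worth 1.29 to 2.90 normalized reads in WT and 0.206 to 1.09 in G12D, so a low peak was resolved more finely in G12D. Marker genes were looked up among the peaks: 12 of 14 colonic epithelium genes had a merged peak, Cdx1 and Cdx2 having none, and 0 of 9 stromal, 0 of 7 blood, 0 of 3 endothelial and 0 of 5 neuronal or glial genes had one. A gene without an Ago2 peak may still be expressed, so these counts cannot test which cells were present. The 79 epithelial marker peaks summed to 3147 to 4467 normalized reads in WT and to 5799 to 7450 in G12D, and their part in the differences below was not tested.

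Ubiquitin is a small protein that is attached to other proteins, most often to send them to the proteasome. An activating enzyme (E1) passes it to a conjugating enzyme (E2, the Ube2 genes), and a ligase (E3) chooses the substrate. HECT ligases take the ubiquitin over before transfer, RING and TRIM ligases bring E2 and substrate together, and cullins build multi-subunit ligases whose F-box proteins bind the substrate. Deubiquitinases such as the Usp enzymes remove ubiquitin again. A miRNA pairs with a transcript mainly through its seed, the bases 2 to 8 of its 5′ end, and lowers the stability or translation of that transcript.

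The authors' annotation lists, for each peak, the miRNA families whose seed matches the peak sequence. A match counted here was of 7 or 8 bases, and 57 of the 74 peaks had one (77.0%, against 71.7% of all annotated merged peaks). The families listed for most member peaks are shown with their most abundant miRNA in these libraries, from RefSeq (GRCm38.p6), 5′ to 3′, with the seed in capitals. The last 2 sequences are shown because their sites lie in the same peaks.
let-7b-5p: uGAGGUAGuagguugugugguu
miR-194-5p: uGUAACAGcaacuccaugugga
miR-92a-3p: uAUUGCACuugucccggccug
miR-19b-3p: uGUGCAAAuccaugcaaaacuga
miR-200c-3p: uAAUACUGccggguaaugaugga
miR-196b-5p: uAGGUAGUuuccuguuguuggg
miR-16-1-3p: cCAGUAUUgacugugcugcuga

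A full 8-base match to let-7b-5p reads CTACCTCA in the target, and one to miR-194-5p reads CTGTTACA. The corresponding matches are GTGCAATA for miR-92a-3p, TTTGCACA for miR-19b-3p and CAGTATTA for miR-200c-3p. The let-7 seed (GAGGUAG) and the miR-196 seed (AGGUAGU) share the 6 letters AGGUAG, and 14 of the 18 member peaks with a let-7 match were listed for miR-196 as well when matches of 6 bases were included. Sequences of the peaks themselves were not used here.

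let-7 was the family listed most often. A let-7 match of 7 or 8 bases was annotated in 18 member peaks of 15 genes, which is 24.3% of the member peaks against 9.53% of all annotated merged peaks. Counted by gene, 31.3% of the 48 member genes and 19.2% of all gene labels had such a peak. The matches comprised 9 of 8 bases, 5 of 7 bases over the whole seed and 4 of 7 bases ending in an A, and 9 of the 18 peaks lay in a 3′ UTR. miR-194-5p followed with 6 peaks (8.11% against 6.19%). The families miR-25/92, miR-19, miR-200/429, miR-29 and miR-141 were each listed for 4 peaks. For miR-25/92 that was 5.41% of member peaks against 1.49% of all annotated peaks, while for miR-200/429 it was 5.41% against 6.26%. These shares are descriptions; peaks of 1 gene share a transcript, and 3 of the let-7 peaks are in Trim6.

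**Figure D1:**
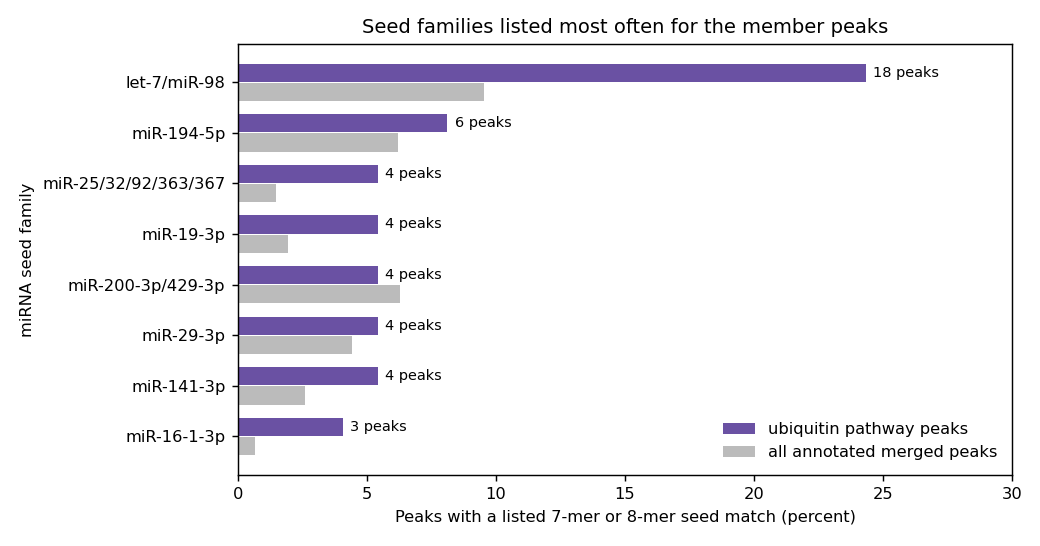
Percent of peaks with an annotated seed match of 7 or 8 bases (x axis) for the 8 seed families listed most often (y axis), in the 74 ubiquitin pathway peaks (purple) and in all annotated merged peaks (grey). let-7 stands at 24.3% of member peaks against 9.53% of all annotated peaks, and miR-200/429 at 5.41% against 6.26%.

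Across the 74 members, 33 had all 3 G12D libraries above all 3 WT libraries, 7 had all 3 below and 34 overlapped. Among all 5504 merged peaks with a read, 50.6% lay wholly above and 12.2% wholly below. The direction of a peak is partly set by where it was called. Of the members, 60 were called in G12D only, 12 in both genotypes and 2 in WT only (the Ube3a peak and a Rnf213 exon peak), and G12D-only peaks made up 77.0% of all merged peaks. In WT, 8 members had no read and 36 had none in at least 1 library.

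A mean of 5 normalized reads over the 6 libraries was required for the main test, limma on log2(normalized reads + 1), with Benjamini-Hochberg adjustment over all 4438 peaks tested and a threshold of 0.05. Of the 74 members 52 were tested, and because members could enter through G12D alone, counts over these 52 only describe them. Here 11 were higher and 5 lower in G12D, and 36 did not pass. All 11 that were higher were in the G12D list only, so their calls and adjusted p-values only describe them. They were 11 of 38 such members tested, beside 1489 of all 3166 such peaks tested. Over all tested peaks 36.2% were higher and 12.7% lower, 48.9% in all. Without the level filter, 33 of 74 members were higher and 5 lower with limma, against 44.9% and 10.5% of 5504 peaks. Of the 22 members below the filter, 21 were higher in that fit. Over all peaks 1607 were higher with the filter and 2469 without it. The share among all peaks below the filter was not computed, so the 21 are not a result about the members. The median log2 fold change of members in the fit without the filter was 1.51 against 1.47 for all peaks. In the authors' deposited table of fold changes, 31 of the 74 members had an adjusted p under the same threshold, 23 higher and 8 lower, against 37.9% and 11.6% of all peaks (49.5% in either direction). Of those 31 in the authors' deposited table, 15 were also called by limma in the same direction.

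The scale matters for these counts. With the deposited factors the median of all tested peaks was 1.05 above 0 on the log2 scale, and 0.73 for the members. Scaling by quantiles brought the median of all tested peaks to 0.11, and 2 members were then higher and 10 lower. With TMM factors in edgeR the counts were 5 higher and 12 lower, and with DESeq2 5 and 11. Of the 16 calls above, 7 held with quantiles and 10 each with TMM and with DESeq2, and the calls lost were all of peaks higher in G12D. The 12 members called in both genotypes had 0 higher and 3 lower with limma (1 higher at an unadjusted p under 0.05). Of these 12, edgeR called 8 lower with TMM factors and 5 lower with the deposited factors, DESeq2 called 7 lower, and 0 were higher with each. Of the 828 such peaks 12.7% were higher and 25.0% lower with limma when tested alone. Values below are on the deposited scale.

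**Figure D2:**
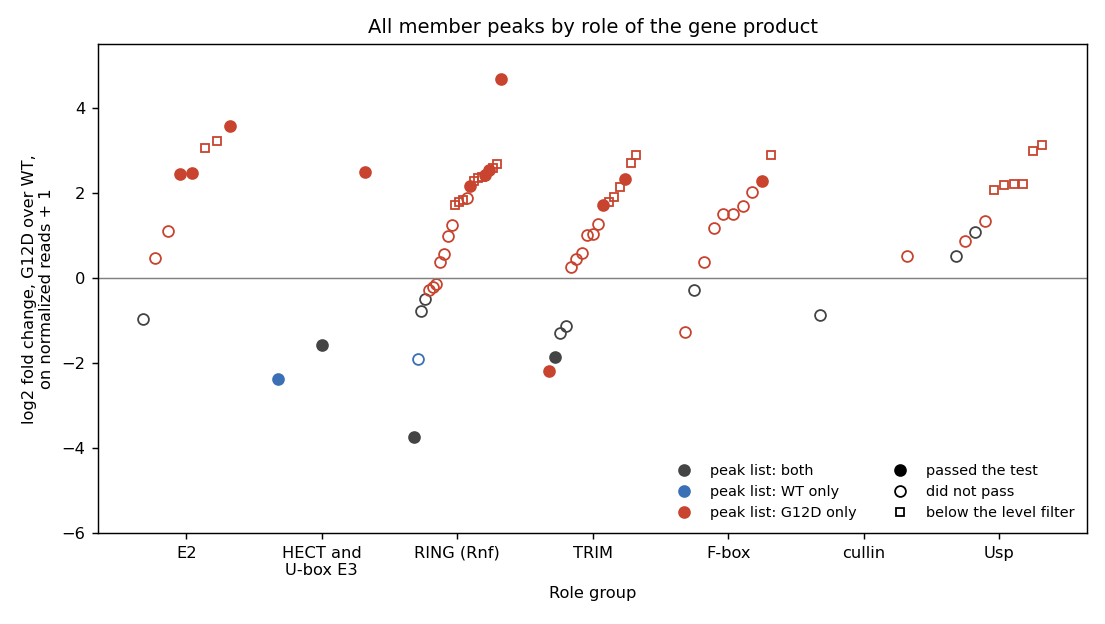
Log2 fold change of G12D over WT on normalized reads + 1 (y axis) for each of the 74 member peaks, by role group (x axis). Colours give the peak list, filled circles passed the limma test, open circles did not, and squares lay below the level filter; the extremes are the Rnf6 peak at -3.74 and a Rnf167 peak at 4.68.

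Among the E2 enzymes, 8 peaks in 5 genes were found, 3 of them higher in G12D, 3 not passing and 2 below the level filter. Ube2b, a relative of yeast Rad6 that acts in DNA damage tolerance and histone ubiquitylation, had a pair of peaks that both rose. Its 3′ UTR peak (chr11:51985823-51985872, mm10, minus strand), which carries the 8-base miR-200 match, had 0 reads in all 3 WT libraries and 8.72, 12.0 and 12.2 normalized reads in G12D. With a floor of 3 counts over the WT group it was at least 6.15-fold higher in G12D (limma adjusted p = 0.000419), but it was in the G12D list only. The intronic Ube2b peak, with 8-base let-7 and miR-26 matches, was at 6.37, 0 and 0 in WT and at 15.3, 7.22 and 7.90 in G12D. Pooled over libraries and scaled for depth, the 3 WT reads and 60 G12D reads gave a ratio of 4.45 (95% counting interval 1.45 to 22.2). The same holds for the read ratios below. limma called the intronic peak higher (adjusted p = 0.0270). That call was lost in 10 of 18 alternative settings, with log2 fold changes down to 0.66 and adjusted p up to 0.531. Among these were quantiles, TMM, DESeq2, thinning, and leaving out any 1 library but WT replicate 1 (limma adjusted p up to 0.104).

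Ube2z, an E2 charged by the activating enzyme Uba6, had a 3′ UTR peak at 10.6, 0 and 5.16 in WT and 22.9, 16.3 and 28.7 in G12D. The groups did not overlap (log2 fold change 2.48 ± 0.83 SE, limma adjusted p = 0.0278). Leaving out any 1 G12D library raised that p to between 0.0871 and 0.137. The call was lost in 7 of 18 alternative settings, also with quantiles, with TMM, with 0.5 in place of 1 added to the reads, and without both libraries numbered 2. The E2 peak with the highest mean was in an exon of Ube2r2, a close relative of Cdc34 that works with cullin ligases. It was at 38.2, 31.9 and 60.6 in WT and at 18.5, 22.1 and 23.0 in G12D. All 3 G12D values lay below the WT ones, but the test was not passed (log2 fold change -0.96 ± 0.40 SE, limma adjusted p = 0.0659). The Ube2r2 peak did pass as lower in 4 of the alternative settings. In the authors' deposited table its log2 fold change was -1.06 with an adjusted p of 0.0479. Neither 3′ UTR peak of Ube2g2, an E2 of endoplasmic reticulum degradation, passed.

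The 3 HECT and U-box peaks all passed. Herc4, a HECT ligase, had an exon peak at 48.8, 20.3 and 52.8 in WT and 14.2, 12.0 and 10.1 in G12D, 40.7 ± 17.8 against 12.1 ± 2.06 (SD, n = 3 each). Its lowest WT library was above the highest G12D one, and it fell by 1.57 on the log2 scale (limma adjusted p = 0.0182). Ube3a, the HECT ligase lost in Angelman syndrome, had an exon peak at 14.9, 5.80 and 43.8 in WT and 2.18, 1.86 and 2.87 in G12D. The WT libraries differed widely among themselves but stayed above G12D (log2 fold change -2.37 ± 0.74 SE, limma adjusted p = 0.0208). Ube4b, a U-box enzyme that lengthens ubiquitin chains, had an intronic peak with 2 reads over the WT libraries and 71 over the G12D libraries, a ratio of 7.90 (95% counting interval 2.11 to 66.5). Its G12D values of 9.82, 10.1 and 9.34 all lay above WT, and limma called it higher (adjusted p = 0.00756). The Ube4b call was lost in 3 of 18 alternative settings, with quantiles, DESeq2 and thinning (log2 fold change down to 0.93, adjusted p up to 0.288). Both falls rest on few libraries: Herc4 did not pass without WT replicate 1 or 3 or without G12D replicate 2 or 3 (limma adjusted p up to 0.0701), nor Ube3a without WT replicate 3 or any 1 G12D library (up to 0.0884). The Ube3a call was also lost with thinning.

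**Figure D3:**
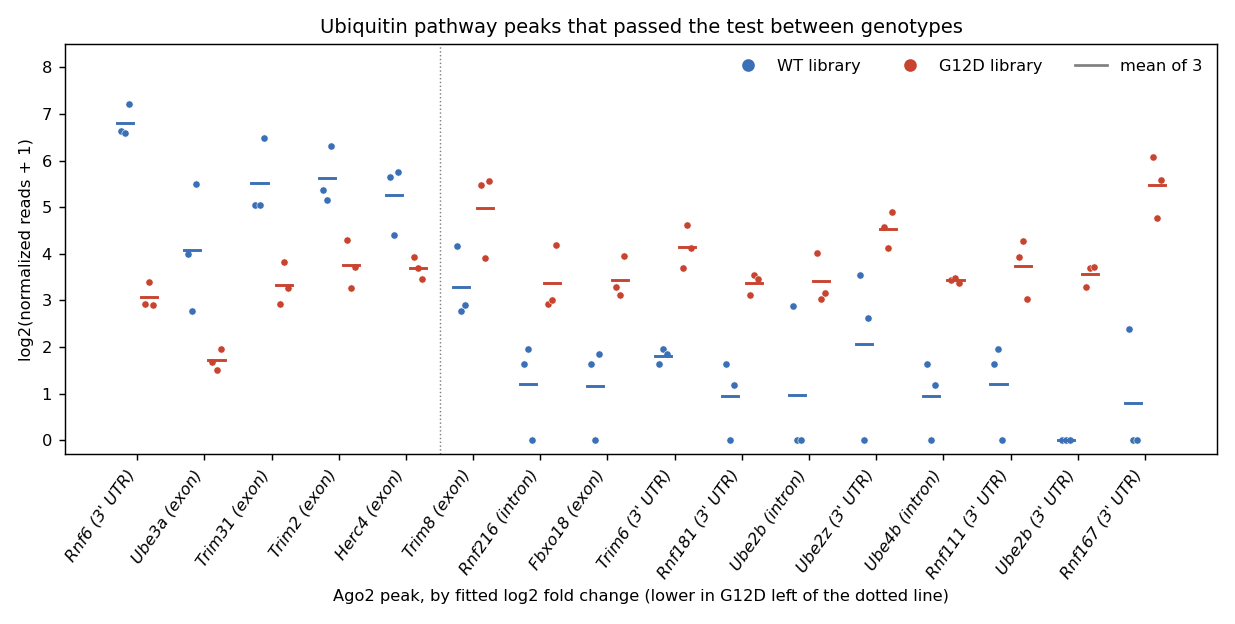
Log2(normalized reads + 1) in each WT (blue) and G12D (red) library, with the mean of 3 as a line, for the 16 member peaks that passed the limma test, ordered along the x axis by log2 fold change. The 5 peaks left of the dotted line were lower in G12D and the 11 to its right higher; in Trim8 alone among the 16 the genotypes overlap.

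The Rnf genes, most of which encode RING ligases, formed the largest group, with 24 peaks in 16 genes. Of these 4 were higher, 1 lower, 11 did not pass and 8 lay below the level filter. The Rnf6 peak was the lowest in G12D relative to WT of all 52 tested members. Rnf6 is a RING ligase known for ubiquitylating the androgen receptor. Its only peak (chr5:146209524-146209575, mm10, minus strand, 3′ UTR) was at 97.7, 95.6 and 147 in WT and at 6.54, 9.49 and 6.46 in G12D, 113 ± 29.0 against 7.50 ± 1.73 (SD, n = 3 each). The groups were far apart, and the peak was called in both genotypes. It fell by 3.74 ± 0.40 SE on the log2 scale (limma adjusted p = 0.000127), the range over the 20 alternative settings being -4.76 to -3.03, and it passed in all of them.

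Rnf167, a ligase of endosomal and lysosomal membranes, had a pair of 3′ UTR peaks whose starts were 99 bases apart. The upstream peak (chr11:70651221-70651282, mm10, plus strand), called in both genotypes and holding the 8-base miR-19 match, was at 76.4, 20.3 and 90.2 in WT and 17.4, 46.0 and 33.8 in G12D. The genotypes overlapped and the test was not passed (log2 fold change -0.77 ± 0.57 SE, limma adjusted p = 0.268). The downstream peak (chr11:70651320-70651366), which has no match of 7 or 8 bases, was at 4.25, 0 and 0 in WT and at 66.5, 26.4 and 46.7 in G12D. With 2 WT reads against 254 in G12D, the ratio was 28.3 (95% counting interval 7.74 to 235), the greatest log2 fold change of the tested members at 4.68 ± 0.76 SE (limma adjusted p = 0.000661). It passed in each of the 19 alternative settings that tested it, its log2 fold change ranging from 2.99 to 5.48. The downstream peak was in the G12D list only, so it entered through the genotype where it is high, and its call only describes it.

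Rnf111 (Arkadia), which promotes TGF-β signalling by removing its repressors, also had peaks that differed. Its exon peak, with 7-base matches to let-7 and miR-194, was at 31.8, 23.2 and 56.7 in WT and 21.8, 41.1 and 16.5 in G12D, which overlapped and did not pass. Its 3′ UTR peak with the 8-base miR-19 match was at 2.12, 2.90 and 0 in WT and 14.2, 18.4 and 7.18 in G12D, and passed (limma adjusted p = 0.0124). The 2 WT reads and 112 G12D reads gave a pooled ratio of 12.5 (95% counting interval 3.37 to 104). G12D replicate 2 supplied 89 of the 112 reads, and the ratio of the normalized means was 7.91. Of the 3 peaks of Rnf181, a small RING ligase, the middle one passed as higher: it was at 2.12, 0 and 1.29 in WT and 7.63, 10.7 and 10.1 in G12D (limma adjusted p = 0.00865). That call was lost in 5 of 18 alternative settings, with quantiles, TMM, DESeq2, thinning and without both libraries numbered 2 (log2 fold change down to 0.87, adjusted p up to 0.326). The last Rnf181 peak lay below the level filter and was higher with limma without it (adjusted p = 0.00514), while the first overlapped and did not pass. The intronic Rnf216 peak, in the gene of a RING-between-RING ligase also called Triad3, was at 2.12, 2.90 and 0 in WT against 6.54, 7.01 and 17.2 in G12D (limma adjusted p = 0.0259). The Rnf111 call was lost without G12D replicate 1 or 2 (limma adjusted p up to 0.0644), and that of Rnf216 without WT replicate 3 or any 1 G12D library (up to 0.103). With quantiles both calls were lost as well (limma adjusted p = 0.192 for Rnf111). The Rnf216 call was also lost with TMM and DESeq2, with adjusted p up to 0.564 over the settings.

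The named Rnf peaks that remain overlapped between genotypes. Rnf169, which binds ubiquitylated chromatin at DNA breaks, had a 3′ UTR peak with a 7-base miR-200 match at 6.37, 31.9 and 37.4 in WT and 26.2, 72.4 and 35.9 in G12D (limma adjusted p = 0.202). Rnf213, a very large ligase linked to moyamoya disease, had a WT-only exon peak with an 8-base miR-92 match at 2.12, 11.6 and 40.0 in WT and 1.09, 3.71 and 2.15 in G12D (limma adjusted p = 0.0910). It passed as lower in 6 of 18 alternative settings, and the authors' deposited table gives a log2 fold change of -2.87 and an adjusted p of 0.00678. The WT libraries of Rnf213 spread over more than the difference between the group means.

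The TRIM group had 17 peaks in 8 genes: 2 higher, 2 lower, 8 not passing and 5 below the level filter. Both falls were in exons. Trim31, a ligase known from the intestine, was at 31.8, 31.9 and 88.9 in WT and 6.54, 13.2 and 8.62 in G12D, 50.9 ± 32.9 against 9.46 ± 3.41 (SD, n = 3 each). The groups did not overlap and the peak fell by 2.19 on the log2 scale (limma adjusted p = 0.00504), although it was called in the G12D list only. It was the only G12D-only member to pass as lower, and it holds an 8-base miR-194 match.

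Trim2, a ligase that acts on neurofilament light chain in neurons, had a peak called in both genotypes with a 7-base let-7 match. It was at 40.3, 34.8 and 78.6 in WT and 18.5, 8.67 and 12.2 in G12D, without overlap (log2 fold change -1.85 ± 0.47 SE, limma adjusted p = 0.00718). Trim8, a ligase described in cytokine signalling, rose by the test (17.0, 5.80 and 6.44 in WT, 43.6, 14.0 and 46.0 in G12D; log2 fold change 1.70, limma adjusted p = 0.0329). Its lowest G12D library lay below its highest WT one, and the call was lost in 9 of 19 alternative settings, among them leaving out WT replicate 2 or 3 or G12D replicate 1 or 3 (limma adjusted p up to 0.164). Trim36 had a 3′ UTR peak with 8-base miR-92 and miR-141 matches at 140, 58.0 and 259 in WT and 40.4, 75.7 and 46.0 in G12D, which overlapped (log2 fold change -1.29 ± 0.50 SE, limma adjusted p = 0.0511). It did pass as lower in 9 of 20 alternative settings, and in the authors' deposited table its adjusted p was 0.0215. On its summed peaks, here the same single peak, Trim36 passed by the test over genes (adjusted p = 0.0457, limma), and that call was lost without any 1 library but WT replicate 2 (up to 0.181).

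Trim6, a ligase of the interferon response, had 3 peaks within one stretch of 3′ UTR, starting 63 and 82 bases apart. Each was listed with an 8-base match to let-7 (CTACCTCA) and one to miR-16-1-3p (AATACTGA). In G12D the first peak was at 5.45, 7.22 and 4.31, the middle one at 12.0, 23.5 and 16.5 and the last at 33.8, 40.6 and 50.3. In WT the first had no read, the middle one stood at 2.12, 2.90 and 2.58 and the last at 57.3, 20.3 and 33.5. The middle peak rose (log2 fold change 2.33 ± 0.60 SE, limma adjusted p = 0.00754, 0.0572 without G12D replicate 2 and 0.0729 with quantiles). The last, which holds most of the gene's reads, overlapped between genotypes (limma adjusted p = 0.626).

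**Figure D4:**
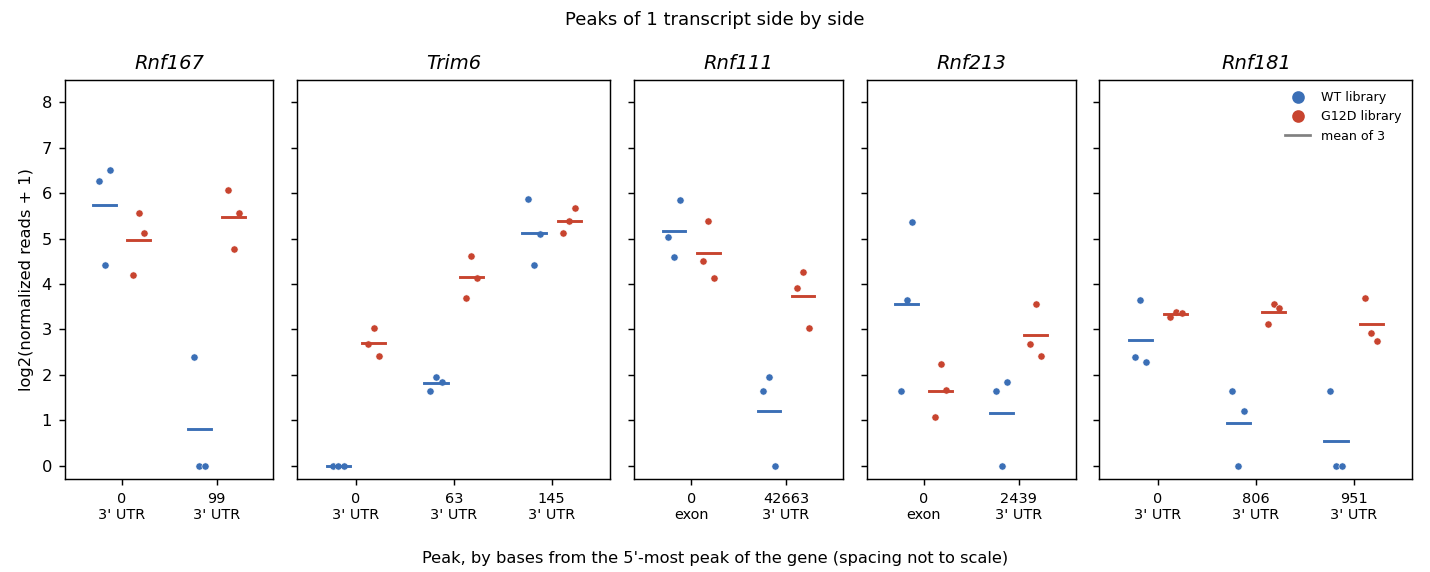
Log2(normalized reads + 1) per library (WT blue, G12D red, lines the mean of 3) for each peak of 5 genes, placed by order along the transcript and labelled with bases from the 5′-most peak. In each gene the peak with the highest mean overlaps between genotypes, while Rnf167, Trim6, Rnf111 and Rnf181 each have another peak that passed as higher in G12D.

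Trim25, the estrogen-inducible ligase that activates RIG-I, had 8 peaks, more than any other member gene. Its exon peak (chr11:88999937-88999990, mm10, plus strand) had the highest mean of all members, also per length (202 normalized reads per 50 bases, against 175 for the highest Fbxo32 peak), and has no match of 7 or 8 bases. It was at 144, 394 and 357 in WT and 118, 72.4 and 222 in G12D, 299 ± 135 against 137 ± 76.6 (SD, n = 3 each). The lowest WT library lay inside the G12D range, and the test was not passed (log2 fold change -1.13 ± 0.49 SE, limma adjusted p = 0.0699). It did pass in 7 of the alternative settings. The other 7 Trim25 peaks lay 16967 to 20165 bases further along in the 3′ UTR, with means of 6.45 to 22.3 in G12D. With limma 0 of the 6 Trim25 peaks tested passed, the exon peak alone had an unadjusted p under 0.05, and edgeR and DESeq2 each called 1 peak lower. The 2 peaks below the level filter were higher with limma without it (adjusted p = 0.000300 and 0.0444). For the 7 in the 3′ UTR the log2 fold changes without the filter were 0.44 to 2.88.

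The F-box group comprised 10 peaks in 6 genes, of which 1 was higher, 8 did not pass and 1 lay below the level filter. The one that rose was an exon peak of Fbxo18, a DNA helicase with an F-box (3 WT reads, 65 G12D reads, ratio 4.82, 95% counting interval 1.58 to 24.0; limma adjusted p = 0.0168, and 0.0699 without G12D replicate 3). It was lost in 6 of 18 alternative settings, with log2 fold changes down to 0.75 and adjusted p up to 0.423. Fbxo32 (atrogin-1), best known as the F-box protein induced in muscle atrophy, had 5 peaks, of which 0 passed with limma (1 at an unadjusted p under 0.05), while edgeR and DESeq2 each called 1 lower. Its main 3′ UTR peak (chr15:58180900-58180955, mm10, minus strand), with a 7-base let-7 match, was at 178, 194 and 272 in WT and 139, 185 and 206 in G12D, 215 ± 50.1 against 177 ± 34.6 (SD, n = 3 each). The groups overlapped (log2 fold change -0.28 ± 0.34 SE, limma adjusted p = 0.504). The other 4 peaks had log2 fold changes of -1.27 to 2.03. Peaks of Fbxl5, the iron-sensing F-box protein, and of Fbxl19 lay wholly above WT without passing.

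**Figure D5:**
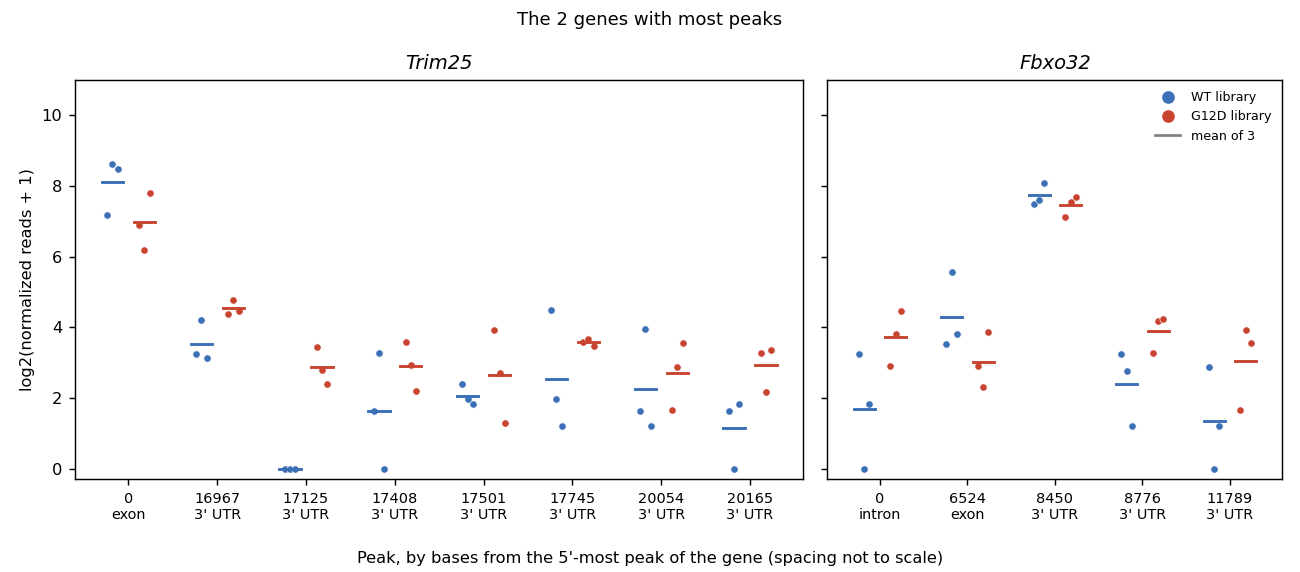
Log2(normalized reads + 1) per library (WT blue, G12D red, lines the mean of 3) for the 8 Trim25 and 5 Fbxo32 peaks, in transcript order with bases from the 5′-most peak. The Trim25 exon peak and the Fbxo32 peak at 8450 bases have the highest means, and of the 11 peaks tested 0 passed with limma, while 2 of Trim25 lay below the level filter.

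Cullins contributed 2 peaks, of which 0 passed with limma, also at an unadjusted p under 0.05, while edgeR with TMM and DESeq2 each called 1 lower. Cul2, the scaffold of the ligase that contains VHL, had an exon peak at 31.8, 55.1 and 38.7 in WT and 27.3, 22.9 and 16.5 in G12D. All G12D values were lower, and the log2 fold change was -0.88 ± 0.41 SE (limma adjusted p = 0.0918). The Cul4b peak overlapped between genotypes.

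The names beginning with Usp gave 10 peaks in 8 genes, and with limma 0 of the 4 tested passed (1 at an unadjusted p under 0.05, 0 with edgeR or DESeq2), while 6 lay below the level filter. Without that filter all 6 were higher with limma (adjusted p between 0.000285 and 0.0329), and 3 of the 10 (1 each of Usp53, Usp54 and Usp8) were higher in the authors' deposited table. Of all 22 members below the filter 21 were higher in that limma fit, so this is not particular to the Usp names. Usp6nl is a GTPase-activating protein for Rab5 and not a deubiquitinase, and it enters by its name. Its main 3′ UTR peak had the highest mean of the group, at 17.0, 37.7 and 16.8 in WT and 36.0, 52.2 and 58.2 in G12D, with a small overlap (log2 fold change 1.08 ± 0.44 SE, limma adjusted p = 0.0581). Usp25 had an exon peak with an 8-base miR-200 match at 31.8, 29.0 and 3.87 in WT and 85.1, 20.6 and 15.1 in G12D. One library of each genotype stood far from the other two, and it did not pass (limma adjusted p = 0.362). Usp8, a deubiquitinase of endosomes, had no mean above the filter: 2 WT reads and 58 in G12D gave a ratio of 6.45 (95% counting interval 1.71 to 54.5).

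In 15 genes with 2 or more peaks, the share of the gene's summed peak reads that lay in its highest peak was computed per library. In Rnf167 the upstream peak held 94.7%, 100% and 100% of the reads in WT and 20.8%, 63.5% and 42.0% in G12D. In Trim6 the last peak held 92.3% ± 4.49 in WT and 64.5% ± 6.99 in G12D (SD, n = 3 each). In all 15 genes every other peak was in the G12D list only, so a smaller share of the highest peak in G12D is partly built into the choice of peaks, and no test of it is given.

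Summed over peaks, 40 of 48 member genes were tested, and 11 were higher and 6 lower in G12D with limma. Over all 2245 genes tested, 35.8% were higher and 14.2% lower. Some genes passed on sums whose single peaks lay below the level filter. Usp53 was at 1.29 ± 2.23 in WT and 16.4 ± 7.71 in G12D, and Rnf103 at 1.57 ± 1.38 and 15.7 ± 3.41 (SD, n = 3 each; limma adjusted p = 0.00500 and 0.00427). Rnf10 passed on its sum as well. All peaks of Usp53, Rnf103 and Rnf10 were in the G12D list only, with 3, 3 and 4 WT reads per gene. These genes entered through the genotype where they are high, so their calls only describe them. The peaks of these 3 genes were not tested singly, and without the filter each of them was higher with limma (adjusted p = 0.000294 and 0.0329 in Usp53, 0.00565 and 0.00566 in Rnf103, 0.00656 and 0.0410 in Rnf10). Usp6nl also passed on its sum, while Rnf167, Rnf111 and Trim6 did not pass on their sums. The Usp6nl sum joins a G12D-only peak with 2 WT reads to its main peak, which did not pass alone. The Rnf10 call was lost without G12D replicate 1 or 2 (limma adjusted p up to 0.0755), and that of Usp6nl without WT replicate 1 or 3 or G12D replicate 2 or 3 (up to 0.127).

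As a share of all reads in merged peaks, the members together took 0.585%, 0.818% and 0.981% in the WT libraries and 0.772%, 0.851% and 0.805% in G12D. The G12D values all lay inside the WT range. The means were 0.795% ± 0.199 and 0.809% ± 0.0401 (SD, n = 3 each), and the two-sided exact permutation test gave p = 0.9. The E2 share was 0.0346% ± 0.0103 in WT and 0.0657% ± 0.00190 in G12D, and the Usp share 0.0392% ± 0.00921 and 0.103% ± 0.0158, both without overlap (exact permutation p = 0.1). The HECT and U-box share was 0.0328% ± 0.0174 against 0.0149% ± 0.00204 (exact permutation p = 0.1). Of the 7 role groups compared, these were the 3 at the smallest p the design allows, which became 0.233 after Benjamini-Hochberg adjustment over the 7. In the E2 group 7 of 8 peaks, and in the Usp group 8 of 10, were in the G12D list only. Their higher share in G12D is therefore partly built into the choice of peaks, and the test cannot decide it.

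The miRNAs that belong to the families listed for member peaks were measured in separate libraries. Of 95 such miRNAs 89 had a mean of at least 10 normalized reads, and 11 were higher and 3 lower in G12D with limma. That split depends on the scale: it was 3 and 6 with equal library totals, 3 and 4 with quantiles, 5 and 4 with TMM and 6 and 3 with DESeq2. Over all 254 miRNAs tested, 9.06% were higher and 6.69% lower (15.7% in all). let-7b-5p, the most abundant let-7, was at 4650, 3268 and 5040 in WT and 4071, 5454 and 3430 in G12D, which overlapped (limma adjusted p = 0.996). Of the 9 miRNAs of the let-7 family 8 were tested and 0 passed with limma, at an unadjusted p under 0.05 or with edgeR or DESeq2, and their sum ran from 9259 to 14588 in WT and from 10629 to 18027 in G12D. Of the 18 member peaks with a let-7 match, 8 lay wholly above WT, 1 wholly below and 9 overlapped, beside the 50.6% and 12.2% of all peaks given above. Of the 14 tested, 3 were higher and 1 lower with limma, and of all 434 tested peaks with such a match 154 were higher and 50 lower. Their median log2 fold changes were 0.94 and 0.88.

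miR-194-5p, an intestinal miRNA, was at 19625, 24797 and 15668 in WT and 22875, 33180 and 30335 in G12D. It passed as higher (log2 fold change 0.53 ± 0.18 SE, limma adjusted p = 0.0339), although the highest WT library exceeded the lowest G12D one. Its 6 member peaks included 3 that rose (Trim8, Rnf216 and Fbxo18) and 1 that fell (Trim31), and of all 269 tested peaks with a miR-194-5p match 120 were higher and 21 lower with limma. The calls of Trim8, Rnf216 and Fbxo18 were lost with quantiles, TMM and DESeq2. miR-92a-3p, of the miR-17/92 cluster, was at 4406 ± 532 in WT and 6681 ± 461 in G12D (SD, n = 3 each) and passed (log2 fold change 0.61, limma adjusted p = 0.0364). miR-25-3p, with the same seed, went the other way without passing (3885 ± 1618 and 2567 ± 470, log2 fold change -0.53, limma adjusted p = 0.135). The sum of the miR-25/92 family overlapped, from 7160 to 10772 in WT and from 8527 to 10415 in G12D. Of the 3 tested member peaks with the miR-25/92 match 0 passed with limma (1 at an unadjusted p under 0.05), while edgeR and DESeq2 each called 2 lower. The miR-194-5p call was lost in 11 of 19 alternative settings (adjusted p up to 0.979) and that of miR-92a-3p in 12 of 19 (up to 0.384). Among these, miR-194-5p did not pass without WT replicate 3 or G12D replicate 2 or 3 (limma adjusted p up to 0.194), nor miR-92a-3p without WT replicate 3 or any 1 G12D library (up to 0.166). miR-19b-3p was at 7709 ± 577 and 10586 ± 654 without overlap, and did not pass (limma adjusted p = 0.0810), and miR-200c-3p overlapped (limma adjusted p = 0.354). Of the same family, miR-200b-3p passed as higher though it overlapped (log2 fold change 0.56, limma adjusted p = 0.0364), and miR-429-3p did not pass (0.227). The miR-200b-3p call was lost without WT replicate 2 or 3 or G12D replicate 2 or 3 (up to 0.152). Among the other families, miR-27a-3p rose by 1.10 and miR-205-5p by 1.16 on the log2 scale, and miR-671-5p fell by 1.23 (limma adjusted p = 5.57e-05, 0.00123 and 0.0199). The miR-671-5p call was lost without WT replicate 2 or 3 or G12D replicate 1 or 2 (up to 0.0841). miR-21a-5p rose by 0.73 and miR-210-3p by 0.86, and miR-224-5p fell by 1.03 (limma adjusted p = 0.00159, 0.00321 and 0.0199). The miR-224-5p call was lost without WT replicate 1 or 3 or G12D replicate 3 (up to 0.122). Its 2 member peaks, in Rnf6 and Ube3a, passed as lower. Of all 50 tested peaks with a miR-224-5p match 26 were higher and 5 lower, and a link was not tested.

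For comparison, 164 further ubiquitin pathway genes outside the naming rule (activating enzymes, other ligases and deubiquitinases, ubiquitin and SUMO genes, proteasome and COP9 subunits) had 67 peaks in 39 genes. Of the 52 tested, 22 were higher and 6 lower with limma, with a median log2 fold change of 1.19. Over all tested peaks 36.2% were higher and 12.7% lower, with a median of 1.05. Their peak with the highest mean was in the 3′ UTR of Cdc34, an E2 of cullin ligases, at 85.4 ± 25.0 in WT and 152 ± 26.0 in G12D (SD, n = 3 each), and did not pass (limma adjusted p = 0.0609). The 3′ UTR peak of Xiap, a RING ligase that inhibits caspases, was at 6.37, 17.4 and 2.58 in WT and 94.9, 194 and 102 in G12D. It rose by 3.98 on the log2 scale (limma adjusted p = 0.000365). A 3′ UTR peak of Syvn1, the ligase of endoplasmic reticulum degradation, fell from 61.9 ± 16.0 to 21.9 ± 1.81, and one of Arel1 rose from 13.2 ± 14.2 to 58.0 ± 28.4 (SD, n = 3 each; limma adjusted p = 0.00911 and 0.00945, the latter 0.0788 without G12D replicate 3). The peak of Znrf2 overlapped between genotypes (limma adjusted p = 0.204). Whether the members differ from these genes was not tested.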

How the data were processed

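Per the file headers, the authors deposited per merged peak and per miRNA the normalized reads of each library (signal), with a table of log2 fold changes, p-values and adjusted p-values, and peak lists with a score. Per the submitters' processing notes, STAR 2.5.2b, DESeq2 and mm10 (GRCm38) were used; the peak caller and the rules of read counting: not given in the sources used here. The values were whole multiples of 1 read per library (100.0% within 0.01 of a read), so reads were recovered. The main test was limma 3.58.1 in R 4.3.3 with a variance trend, over all features; edgeR 4.0.16 and DESeq2 1.42.0 on recovered reads were alternatives. The script was tested on simulated data. The members and lists were chosen with earlier results of these data known. Named peaks were those passing without overlap (up to 10 each way), the 5 highest means, the highest of each role group, genes with 4 or more peaks, and the 2 highest of the 5 leading seed families, ties among families being broken by 8-base matches, then name. Other peaks are named to complete a gene or group, chosen after their values were seen. Of 45 seed families, 41 were matched to miRNAs by seed and 4 by name. Read ratios pool the reads of a group's libraries and divide by its summed depth factors, so deeper libraries weigh more. Intervals of read ratios are exact binomial (Clopper-Pearson) and cover counting error only. A class marked with an asterisk in the deposited annotation has no stated meaning.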

Additional observations from a re-analysis of the deposited data

How the results depend on the processing

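All 16 calls of single member peaks kept their sign in every setting that tested them, and 5 passed in all (Rnf6, Trim31, Trim2, the 3′ UTR peak of Ube2b and the downstream Rnf167 peak). The Ube2b and Rnf167 peaks were in the G12D list only, so passing in every setting only describes them. The number called, 16, was 38 without a level filter, 7 with a minimum of 20 and 3 among peaks of both lists, and 9 to 22 with 1 library left out, being lowest without G12D replicate 2 and 10 without G12D replicate 1 or 3. On summed genes it was 17, then 7 with the stricter minimum, 4 on peaks of both lists, 10 after thinning to the shallowest library and 8 to 18 with 1 library left out. For miRNAs of the listed families it was 14, then 2 without a variance trend, 9 with equal library totals, 7 with quantiles, 9 each with TMM, DESeq2 and no filter, and 5 to 18 with 1 library left out. For the 164 other genes it was 28, then 8, 2 on peaks of both lists, 18 without both libraries numbered 2 and 16 to 28 with 1 library left out. The settings without both libraries numbered 2, with thinning, and with the deposited factors in edgeR were chosen after seeing the data.

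Replicate numbers are shared by the genotypes. Same-numbered deviations correlated at 0.04, -0.04 and -0.01 over peaks and at -0.0003, -0.42 and -0.32 over miRNAs. Those of different number correlated at up to 0.071 over peaks and up to 0.425 over miRNAs. With 3 libraries a group these values cannot settle whether the numbers mark pairs. With the replicate block 19 member peaks, 17 genes, 26 other peaks and 6 miRNAs were called.

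The difference in the members' share of reads, 0.0147 percentage points, turned to -0.0486 outside rRNA and snRNA, -0.217 in 3′ UTR peaks and -0.189 in peaks of both lists, and ran from -0.0900 to 0.108 with 1 library left out. Some differences that did not pass also turned. The Usp25 peak, at 0.88 on the log2 scale, turned without WT replicate 3 (-0.015 to 1.36 with 1 library left out). The last Trim6 peak turned without WT replicate 2 (-0.094 to 0.63 with 1 left out). It also turned to -0.087 without both libraries numbered 2, -0.38 with TMM and -0.19 with DESeq2. The main Fbxo32 peak turned to 0.17 with quantiles. let-7b-5p turned to 0.010 after thinning and ran from -0.19 to 0.15 with 1 library left out, and miR-200c-3p to -0.11 with equal totals and -0.29 with quantiles. The causes were not tested. In 36 members a WT library had no read, and values there are not resolved below 1 read.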
